A study of Mus musculus with 4 samples.

Results

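The MS4A genes described here are Ms4a1, Ms4a4b, Ms4a4c, Ms4a6b, Ms4a6c, Ms4a6d and Ms4a7, 7 of the 31053 genes counted in each library. They were chosen by name, and their values were read in every droplet with at least 1000 unique molecular identifiers (UMIs, each standing for a captured transcript), at least 500 genes and at most 10% mitochondrial UMIs. The cells were leukocytes sorted by CD45 from B16 melanomas, a transplantable mouse melanoma grown in male C57BL/6 mice and taken on day 12. The mice were labelled as ATPIF1 knock-out (KO) or wild-type (WT). The labels name 6 mice without saying whether that is per genotype, and they do not describe the knock-out allele. The tumour suspensions of a genotype were pooled before the sort, each position of the chip received some 17400 cells, and each pool gave 1 RNA library read from the 5′ end of transcripts and 1 T cell receptor (TCR) library. With 1 pool per genotype no difference between libraries was tested or has a replicate check.

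MS4A proteins cross the membrane several times, and their genes lie together in a cluster in which related copies neighbour each other. The family is best known for CD20, the product of Ms4a1, which sits on B cells and is the target of therapeutic antibodies, and for the beta chain of the high-affinity IgE receptor, the product of Ms4a2, which sits on mast cells and basophils. In mice, Ms4a4b is expressed by T and NK cells and its product associates with the costimulatory receptor GITR, while several other members are expressed by monocytes and macrophages.

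In these tumours the 7 genes divided by cell class. Ms4a1 was found in B cells, and Ms4a4b in T and NK cells. Ms4a6b was found in T cells, macrophages and type 2 conventional dendritic cells (cDC2). Ms4a4c and Ms4a6c were found in monocytes, macrophages and cDC2. Ms4a6d lay mainly in monocytes and macrophages, and Ms4a7 in macrophages but hardly in monocytes or dendritic cells. Between libraries, Ms4a4c was higher in every monocyte and macrophage cluster of the library labelled KO, and Ms4a7 was lower there in every such cluster with at least 20 of its UMIs. Ms4a6c and Ms4a6d stayed within 1.5-fold over the monocytes and macrophages together.

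The members lie on chromosome 19 within a cluster of 21 genes that spans 678.563 kb in the RefSeq table of GRCm38.p6 (10962289 to 11640851). The 7 members span 355.126 kb of it. In order along the chromosome they are Ms4a1 (11249679 to 11266149), Ms4a7 (11321039 to 11336146, minus strand), Ms4a4c (11404717 to 11427246, plus strand), Ms4a4b (11443558 to 11463549, plus strand), Ms4a6c (11469353 to 11487182, plus strand), Ms4a6b (11518559 to 11530403, plus strand) and Ms4a6d (11586606 to 11604804). Ms4a4c and Ms4a4b are neighbours 16.312 kb apart, and Ms4a6c and Ms4a6b are neighbours 31.377 kb apart. Ms4a1 overlaps the RefSeq gene 4930526L06Rik, Ms4a4c overlaps Gm5692 and Ms4a6c overlaps BE692007. Whether counting used the strand is not given in the sources used here.

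The promoters of the neighbours are shown because each pair is alike in sequence while the cells that hold its transcripts differ, largely for Ms4a4b and Ms4a4c and in T cells for Ms4a6b and Ms4a6c. RefSeq promoter windows (GRCm38.p6) were given for 5 of the 7 members, all but Ms4a1 and Ms4a6d. The stretches below, 5′ to 3′, lie before the start site of each window, at chr19:11443427-11443553 for Ms4a4b and chr19:11407533-11407660 for Ms4a4c, both on the plus strand. The window of Ms4a4c lies within the gene's annotated span, at a start site further in. Capitals mark runs of at least 8 bases that are identical in the pair. The last stretch of capitals in Ms4a4b joins runs that an added base separates in Ms4a4c.
Ms4a4b: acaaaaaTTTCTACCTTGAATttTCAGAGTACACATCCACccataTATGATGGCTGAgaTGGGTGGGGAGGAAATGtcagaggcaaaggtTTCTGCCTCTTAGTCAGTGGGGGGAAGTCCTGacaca
Ms4a4c: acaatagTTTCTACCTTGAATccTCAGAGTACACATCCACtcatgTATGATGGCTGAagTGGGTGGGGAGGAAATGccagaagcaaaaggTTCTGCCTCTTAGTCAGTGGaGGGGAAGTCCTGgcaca

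Over the aligned windows 89.33% of the columns were identical between Ms4a4b and Ms4a4c, and 114 of the 127 base pairs aligned before the start were identical. Of the bases aligned within the first transcribed stretch, 42 of 46 were identical, so 5′ reads of the 2 genes differ at few positions there, and how reads shared by both were handled was not given. The 2 genes nevertheless had separate patterns across classes, as their values show below. The second pair, at chr19:11518374-11518489 for Ms4a6b and chr19:11469254-11469367 for Ms4a6c, both on the plus strand, shares a run of 48 identical bases. The stretch of Ms4a6c ends within the gene's annotated span, which begins at 11469353.
Ms4a6b: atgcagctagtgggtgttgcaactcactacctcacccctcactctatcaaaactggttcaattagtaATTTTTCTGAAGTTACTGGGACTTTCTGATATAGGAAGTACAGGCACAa
Ms4a6c: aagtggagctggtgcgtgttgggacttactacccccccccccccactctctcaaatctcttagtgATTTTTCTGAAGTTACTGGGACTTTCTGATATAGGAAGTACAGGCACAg

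Identity was 81.2% over the aligned windows of Ms4a6b and Ms4a6c, whose annotated starts lie at different points of the alignment. The upstream stretch of Ms4a7 (chr19:11336147-11336266, minus strand) is not part of a pair. Its capitals mark a match to the core GGAAGT of ETS transcription factors, on the other strand.
Ms4a7: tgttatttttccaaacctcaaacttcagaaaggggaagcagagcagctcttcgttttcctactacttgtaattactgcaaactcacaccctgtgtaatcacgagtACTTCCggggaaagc

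The core GGAAGT, searched on both strands, was found in a window of each of the 5 members. It lay 15 bases before the start in Ms4a4c and Ms4a7, 16 before it in Ms4a6c, 19 before it in Ms4a4b, and 43 and 85 before it in Ms4a6b. Ms4a6c had another match 25 bases after its start, and the other window of Ms4a7 had none. The core is found in 23.77% of 32851 mouse promoter windows of the same 300 bases. A minimal interferon-stimulated response element (GAAA on both sides of any 2 bases, both strands, 3.443% of windows) had no match in the members' windows, and neither did a gamma-activated site (TTCNNNGAA, both strands, 8.298%). The longer core GAGGAAGT of the ETS factor PU.1 (3.202% of windows) and the ETS and IRF composite element (GGAA and GAAA with any 2 bases between them, 2.715%), both searched on both strands, had none either. These matches describe letters in the windows and do not show that a factor binds.

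The library labelled KO held 24385843 UMIs and the library labelled WT 35152477. After filters and removal of likely doublets 3129 cells were kept in the library labelled KO and 4217 in the library labelled WT, with medians of 4209 and 4213 UMIs per cell. The libraries shared 26 cell barcodes. Clusters were drawn without any MS4A gene, so a member's level by cluster was not set by the clustering. Class names are short for cells that look like the class by its markers, and a gene's UMIs in a class over all UMIs of the class give the CPM (counts per 1e+06 UMIs) used below. Parentheses give exact 95% intervals, which cover counting error only. Atpif1, the targeted gene, stood at 680.2 CPM over all cells of the library labelled KO and at 574 CPM over those of the library labelled WT, so it was not lower with the knock-out label. Reads at the 5′ end could miss a deletion further on, so this level checks nothing about the allele, and the direction of each comparison rests on the label.

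**Figure D1:**
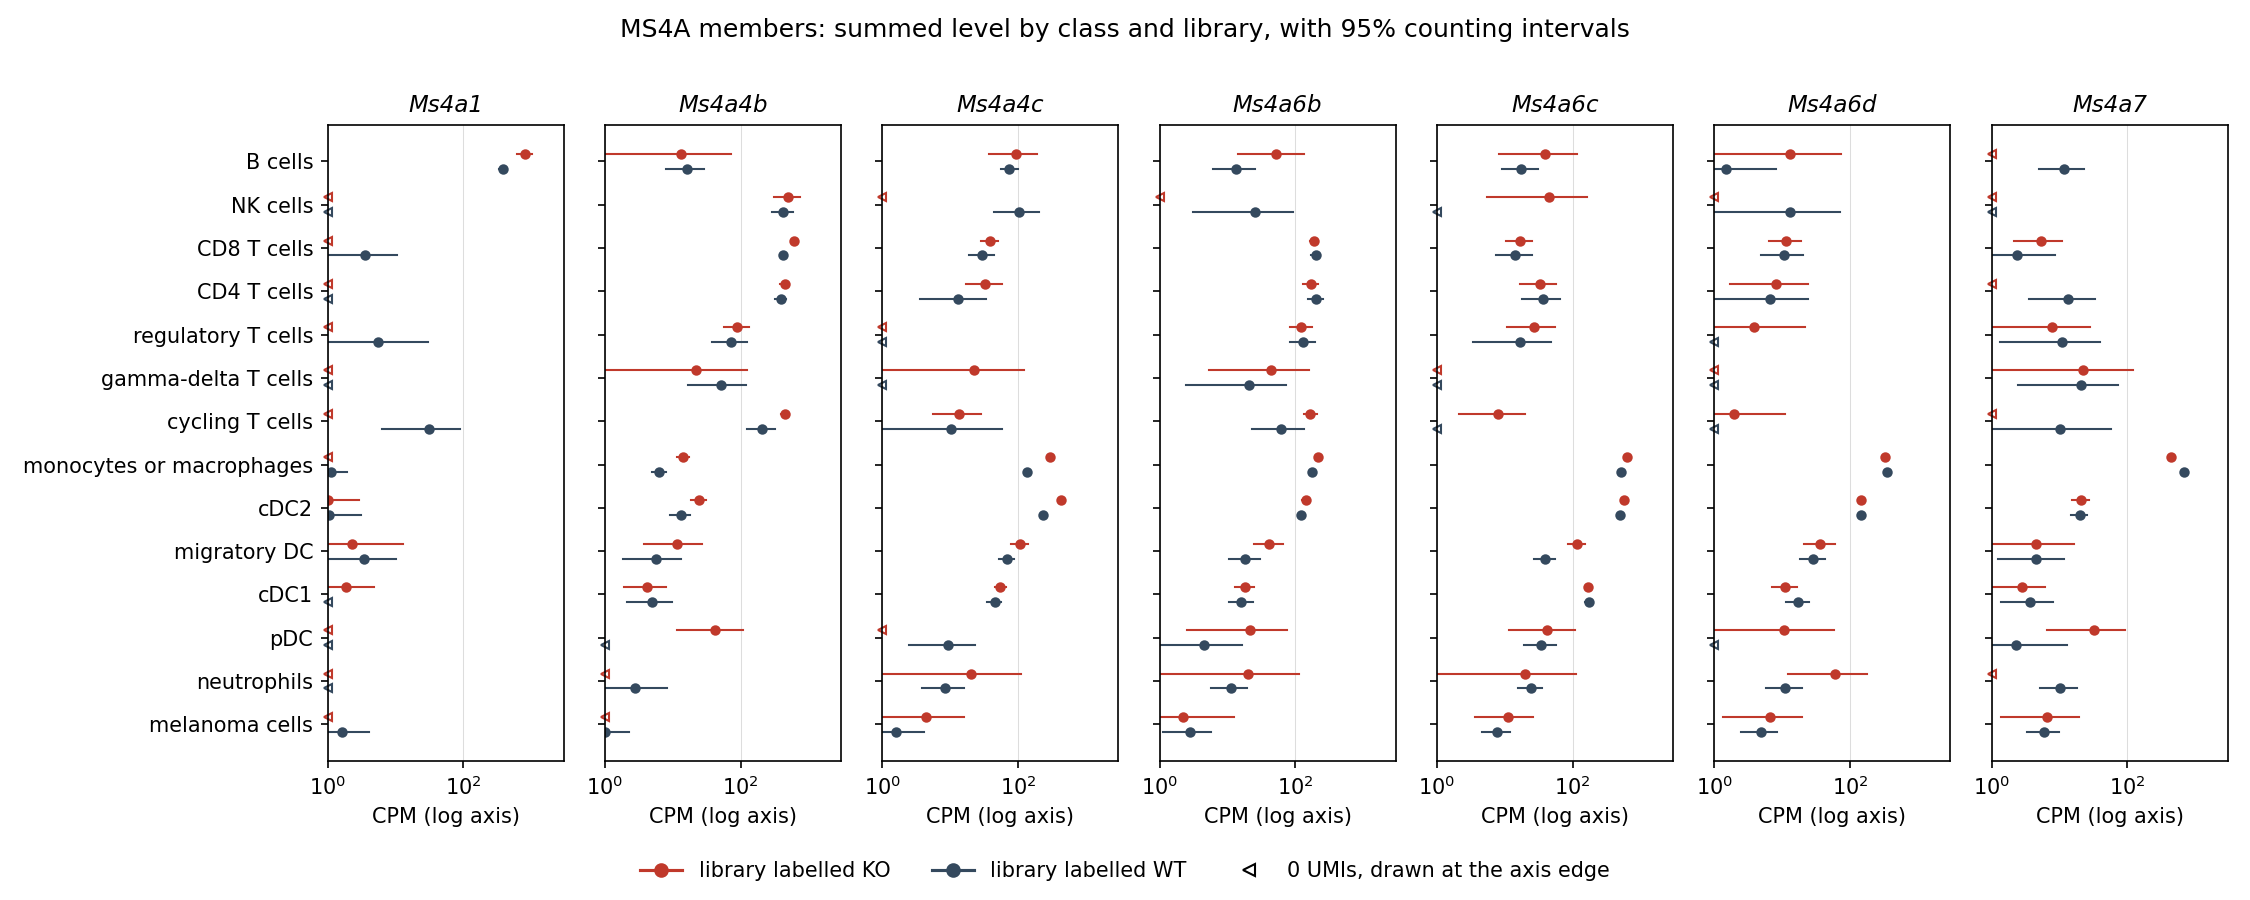
Level of the 7 members in 14 classes (points, CPM on a log axis; bars, exact 95% counting intervals) in the library labelled KO (red) and the library labelled WT (dark). Ms4a1 stands out in B cells, Ms4a4b in T and NK cells and Ms4a7 in monocytes or macrophages, where it is at 444 CPM in the library labelled KO and 689 CPM in the library labelled WT.

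Ms4a1, which encodes CD20, was found almost only in B cells, the class marked here by Cd79a, Cd79b and Pax5. B cells held 62 of its 69 UMIs in the library labelled KO and 261 of its 292 UMIs in the library labelled WT. Its level in B cells was 813 CPM (624 to 1043) in the library labelled KO, against 383 CPM (338 to 432) in the library labelled WT. No other class had more than 4 UMIs in either library except the monocytes or macrophages of the library labelled WT, which held 14 UMIs at 1.14 CPM. Among monocytes or macrophages of the library labelled KO none was found in 1171 cells, so that up to 0.256% of cells could hold a UMI.

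The log2 ratio of Ms4a1 in B cells, KO over WT, was 1.09 (0.66 to 1.49), a 2.13-fold difference. This ratio rests on 43 B cells in the library labelled KO and 367 in the library labelled WT, with medians of 1470 and 1676 UMIs. A UMI of Ms4a1 was found in 31 of the 43 B cells (72.1%) in the library labelled KO and in 155 of the 367 (42.2%) in the library labelled WT. After thinning to 1000 UMIs per cell, 26 of 43 B cells (60.5%, 44.4 to 75.0) in the library labelled KO held an Ms4a1 UMI. In the library labelled WT, 110 of 367 did (25.3 to 34.9%). These intervals cover counting error and not the spread between pools. Of the genes of B cells with at least 20 UMIs, 17.8% were at least 1.5-fold higher in the library labelled KO.

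Genes of the B cell receptor and its co-receptors, a list of 10, gave the setting. In the library labelled KO, 4 of the 10 were at least 1.5-fold higher, none was as much lower (24.3% of all genes were), and the median log2 ratio was 0.11, beside -0.03 over all 4237 genes measured. Among the 4 were Cd79b, a signalling chain of the receptor (log2 0.80, 0.47 to 1.13), the inhibitory co-receptor gene Cd22 (0.86, 0.06 to 1.58) and the complement receptor gene Cr2 (1.12, -0.11 to 2.20, 9 and 37 UMIs). Cd79a, the other signalling chain, stood at 2270 CPM in the library labelled KO and 2252 CPM in the library labelled WT, and Ighm, the IgM heavy chain, at 2047 and 2028 CPM. Markers of other types in these cells included the 7 neutrophil genes, which summed to 52.5 CPM in B cells of the library labelled KO, with 5 of 7 at 0, and to 661 CPM in the library labelled WT, with none at 0. The part of such RNA in the Ms4a1 difference was not tested.

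Summed over all cells kept, Ms4a1 went the other way. It was at 3.95 CPM in the library labelled KO and at 11.1 CPM in the library labelled WT, a log2 ratio of -1.49 (-1.89 to -1.10), where B cells made up 1.37% and 8.70% of the cells. In empty droplets, which hold RNA free in the suspension, it was at 4.98 and 18.9 CPM.

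Ms4a4b, the T and NK cell member, was high in CD8, CD4 and cycling T cells and in NK cells of both libraries. In CD8 T cells it stood at 614 CPM (573 to 658) in the library labelled KO and at 416 CPM (374 to 462) in the library labelled WT. In NK cells, a class of 15 and 22 cells, it stood at 492 CPM (308 to 745) and 424 CPM (292 to 596), and in CD4 T cells at 444 CPM (379 to 518) and 388 CPM (321 to 465). The NK interval overlapped those of CD8 and CD4 T cells in both libraries, while CD8 and CD4 T cells overlapped each other only in the library labelled WT. Cycling T cells held 454 CPM from 57 cells and 206 CPM from 9 cells.

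T cells were not alike in Ms4a4b. Regulatory T cells, marked by Foxp3, held 88.3 CPM (56.0 to 132) in the library labelled KO and 71.3 CPM (38.0 to 122) in the library labelled WT, below the CD4 T cell class in each library with no overlap of intervals. Gamma-delta T cells, marked by Il17a and Cd163l1, held 22.1 CPM from 1 UMI and 51.2 CPM from 5 UMIs. Thinned to 1000 UMIs, 11.1% of regulatory T cells in the library labelled KO and 11.4% in the library labelled WT had an Ms4a4b UMI, against 27.8% and 24.8% of CD4 T cells. Tnfrsf18, which encodes GITR, was at 499 CPM in regulatory T cells of the library labelled KO and 856 CPM in those of the library labelled WT, and at 102 and 74.7 CPM in CD8 T cells.

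Ms4a4b also differed among CD8 clusters. Cluster T5, led by the chemokine genes Ccl1, Ccl3 and Xcl1 with Gzmk and Lag3, held 894 CPM (819 to 975) in the library labelled KO and 1027 CPM (817 to 1275) in the library labelled WT. Cluster T11, led by Bcl2l11, held 227 and 202 CPM, and cluster T3, with Ly6c2 and Ccl5, held 399.6 and 451 CPM. The unnamed cluster T6, led by the killer lectin receptor genes Klra1 and Klra7, was near T5 at 918 CPM (785 to 1066) and 817 CPM (668 to 990). T5 was thus 3.94-fold above T11 in the library labelled KO and 5.08-fold above it in the library labelled WT.

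Over the CD8 class the log2 ratio of Ms4a4b was 0.56 (0.38 to 0.75), just under the 1.5-fold mark (0.58 on the log2 scale). The class also has a shift of its own, with a median of 0.25 over 6708 genes. Cluster T5 supplied 43.6% of the class's UMIs in the library labelled KO and 9.47% in the library labelled WT. With the same cluster weights in both libraries the ratio was -0.0444. Within clusters the ratio was -0.20 (-0.54 to 0.15) in T5, -0.17 (-0.52 to 0.17) in T3, 0.17 in T6 and T11 and 0.46 (0.01 to 0.92) in T1, led by Igfbp4 and Dapl1. None of the 5 members with at least 20 UMIs in CD8 T cells passed 1.5-fold, where 30.3% of all genes did. With the unnamed clusters T0 and T6 added, 3 of 5 were at least 1.5-fold higher, as 21.9% of all genes were.

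**Figure D2:**
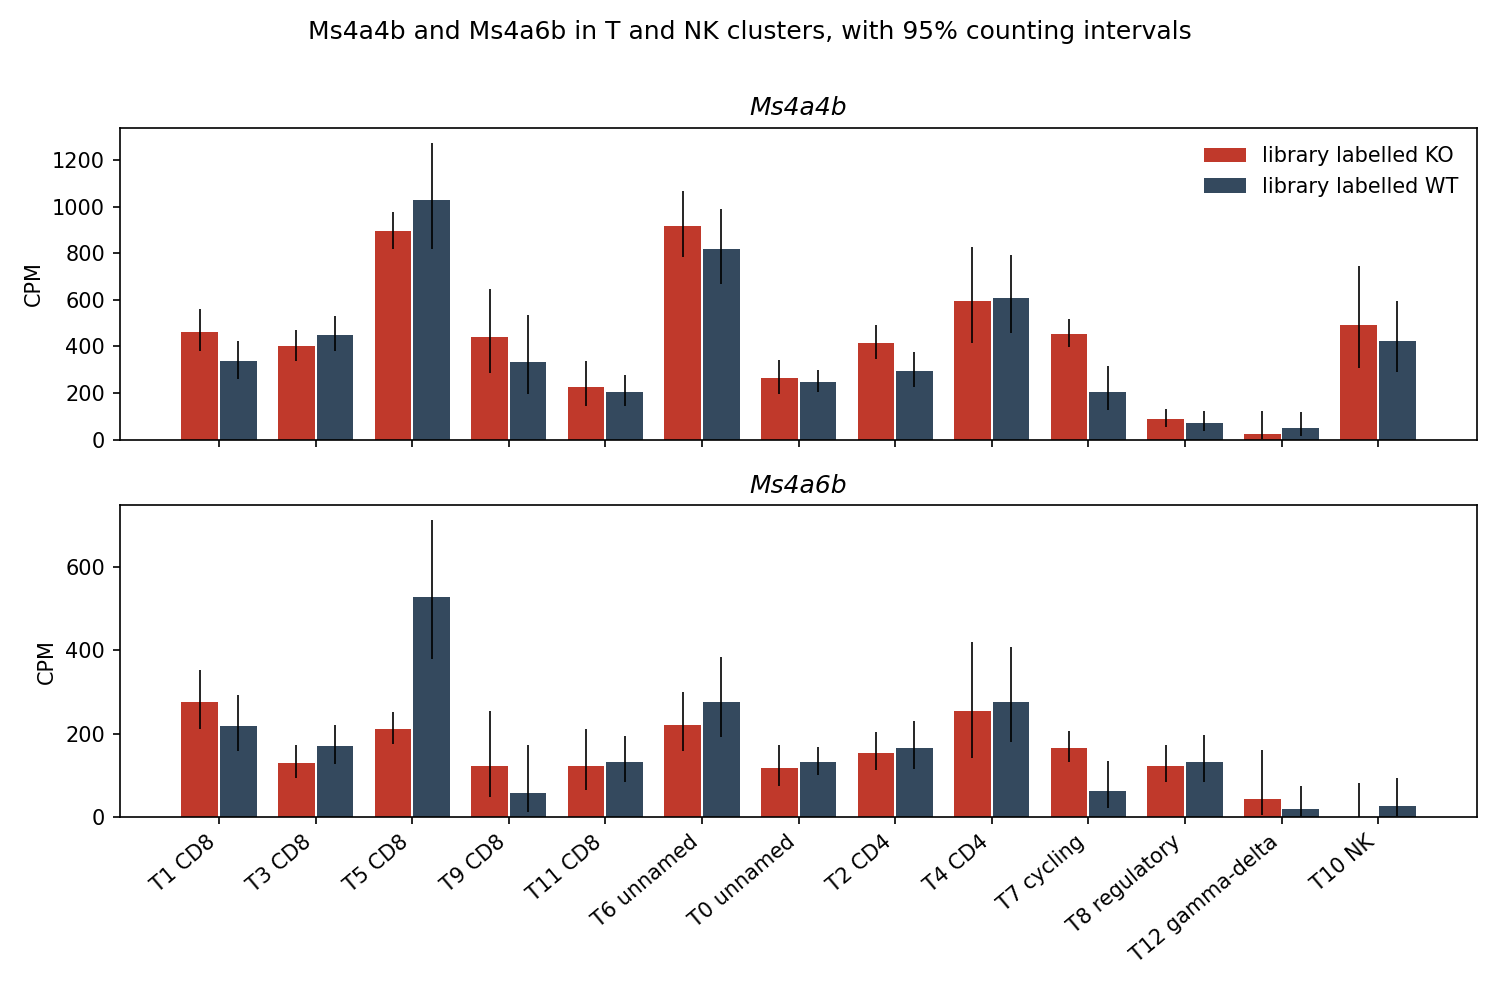
Ms4a4b (top) and Ms4a6b (bottom) in 13 T and NK clusters (bars, CPM; lines, exact 95% counting intervals) in the library labelled KO (red, left) and the library labelled WT (dark, right). Ms4a4b is highest in T5 and T6 and low in regulatory and gamma-delta T cells of both libraries, and Ms4a6b in T5 is at 211 CPM in the library labelled KO and 526 CPM in the library labelled WT.

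The TCR libraries gave a second way to define T cells. T or NK cells with a productive beta chain held Ms4a4b at 638 CPM (592 to 687, 209 cells) in the library labelled KO and at 456 CPM (408 to 509, 186 cells) in the library labelled WT. Those without one held 405 CPM (378 to 434, 831 cells) and 282 CPM (257 to 309, 596 cells). Cells with a chain were deeper in both libraries, with medians of 3935 and 3464 UMIs, against 1897 and 2367 UMIs in those without. Among cells with a chain and a Cd8a or Cd8b1 UMI, Ms4a4b was at 792 CPM (727 to 860, 130 cells) and 640.3 CPM (554 to 737, 73 cells), which gives a log2 ratio of 0.31 (0.07 to 0.55). A clonotype, defined by identical alpha and beta chains, could be given only to cells with both chains, which left out 69 of the 130 cells in the library labelled KO, at 683 CPM (593 to 783), and 44 of the 73 in the library labelled WT, at 485 CPM (389.8 to 596). In the library labelled KO, the 44 of these cells whose clonotype was found in 2 or more cells held 987 CPM (879 to 1105), and the 17 with a clonotype of their own held 499 CPM (365 to 665). In the library labelled WT, 3 cells had a clonotype found in 2 or more cells, and the 26 with a clonotype of their own held 895 CPM (726 to 1092), close to the shared clonotypes of the library labelled KO. Cells with a beta chain and a Cd4 UMI held 219 CPM (159 to 296, 32 cells) and 376 CPM (271 to 509, 27 cells). Their log2 ratio was -0.78 (-1.43 to -0.13), where the CD4 class had 0.20. This set is not defined by class, so its cells need not be those of the CD4 class. It held Ms4a6c at 86.7 CPM (17 UMIs) and 26.9 CPM (3 UMIs), against 32.7 and 36.4 CPM in the CD4 class. The part of such mixing in the Ms4a4b ratio was not tested.

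Outside T and NK cells Ms4a4b was low. In monocytes or macrophages it was at 14.3 CPM (11.6 to 17.4) in the library labelled KO and 6.25 CPM (4.93 to 7.81) in the library labelled WT, and in empty droplets at 106 and 28.0 CPM. The 5 T cell genes summed to 42.5 and 17.0 CPM in the same monocytes or macrophages, with all 5 higher in the library labelled KO and none at 0. Free RNA was estimated at 6.46% and 2.61% of the UMIs of these cells, which at the levels of empty droplets would give 6.87 and 0.731 CPM of Ms4a4b, less than was found in either library. Where the rest came from was not tested.

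Ms4a6b was spread over both lineages. CD8 T cells held 189.6 CPM (167 to 215) in the library labelled KO and 200.4 CPM (171 to 233) in the library labelled WT, CD4 T cells 169 and 199 CPM, and monocytes or macrophages 213 CPM (202 to 224) and 176 CPM (168 to 183). Monocytes or macrophages held 59.7% of its UMIs in the library labelled KO and 70.7% in the library labelled WT. The cDC2 class held 141 CPM (127 to 157) in the library labelled KO and 122 CPM (110 to 136) in the library labelled WT. B cells held 52.5 CPM from 4 UMIs and 13.2 CPM from 9 UMIs, and cDC1, the dendritic cells marked by Xcr1 and Clec9a, held 18.2 and 16.1 CPM.

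The CD8 ratio of Ms4a6b was -0.08 (-0.37 to 0.21). It was -0.55 with the same cluster weights and 0.22 with classes by gating on marker UMIs, so its direction was not stable. Cluster T5 stood at 211 CPM (176 to 252, 162 cells) in the library labelled KO and 526 CPM (379 to 711, 26 cells) in the library labelled WT, a log2 ratio of -1.32 (-1.83 to -0.77). Of the genes measured in T5, 13.4% were at least 1.5-fold lower in the library labelled KO. The 42 UMIs of the library labelled WT came from 18 cells, and 16.7% of them from a single cell. In T1 and T3 the ratios were 0.33 (-0.24 to 0.92) and -0.39 (-0.99 to 0.20).

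Ms4a4c, the neighbour of Ms4a4b with the like promoter, was a gene of monocytes, macrophages and cDC2. The highest class was cDC2, marked by Cd209a and Clec10a, at 429.8 CPM (404 to 456) in the library labelled KO and 234 CPM (217 to 253) in the library labelled WT. Monocytes or macrophages held 295 CPM (282 to 308) and 137 CPM (130 to 143). B cells held 91.8 CPM (36.9 to 189) and 74.8 CPM (55.7 to 98.3). CD8 T cells were at 38.5 and 29.7 CPM, under the 174 and 92.0 CPM of empty droplets. Free RNA was estimated at 3.85% and 2.46% of the UMIs of CD8 T cells, and its part in these values was not tested.

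Over monocytes or macrophages the log2 ratio of Ms4a4c was 1.11 (1.02 to 1.20), a 2.16-fold difference. It was higher in all 6 clusters of the class, although not past 1.5-fold in 2 of them. The interferon-rich cluster M0, led by Cxcl9 and Ifit3, had the highest level and the smallest difference, at 548 CPM (520 to 577) in the library labelled KO and 484 CPM (451 to 520) in the library labelled WT. Monocytes of cluster M2, led by Chil3, were at 468 CPM (356 to 604, 30 cells) and 346 CPM (310 to 384, 188 cells). In the macrophage cluster M1, led by Gdf15, Ccl7 and Il10, the levels were 222 CPM (196 to 250) and 75.3 CPM (66.2 to 85.2), a ratio of 1.56 (1.30 to 1.81), where 12.6% of genes were at least 1.5-fold higher.

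Cluster M5, with Ccl8, Folr2 and C1qa, held 94.5 and 41.5 CPM, a ratio of 1.19 (0.79 to 1.58), and cluster M3, with Mmp12, Spp1 and Arg1, held 108 and 62.1 CPM, a ratio of 0.80 (0.49 to 1.12). Past 1.5-fold higher were 8.2% of the genes of M5 and 8.28% of those of M3. The 18 cells of cluster M13, led by Inhba and Ptgs2, held 167 CPM (91.4 to 281) in the library labelled KO, and its 202 cells in the library labelled WT held 56.6 CPM (43.6 to 72.1). Cluster M0 supplied 36.8% of the class's UMIs in the library labelled KO and 12.7% in the library labelled WT. With the same cluster weights the ratio of Ms4a4c was 0.54, and without M0 it was 0.78.

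In cDC2 the ratio of Ms4a4c was 0.87 (0.73 to 1.02), and 8.34% of genes were at least 1.5-fold higher. The thinned shares of cDC2 with a UMI were 32.1% (27.4 to 37.2) in the library labelled KO and 16.8% (13.1 to 21.0) in the library labelled WT, from 364 cells in each. In cDC1 the levels were 54.6 and 45.1 CPM, a ratio of 0.27 (-0.16 to 0.72).

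A list of 16 interferon-induced genes, among them Isg15, Rsad2 and Ifit3, was higher throughout the same cells. In monocytes or macrophages all 16 were at least 1.5-fold higher in the library labelled KO, where 6.82% of all 10889 genes were, and their median log2 ratio was 1.56, beside -0.0005 over all genes. In cDC2 all 16 were, with a median of 1.24. Cluster M0 supplied 36.8% of the UMIs of monocytes or macrophages in the library labelled KO and 12.7% in the library labelled WT. No value of the list with the same cluster weights is given. By cluster the list's median was 1.67 in M1, 1.61 in M5, 0.68 in M3, 0.67 in M2 and 0.48 in M0, set beside the Ms4a4c ratios of 1.56, 1.19, 0.80, 0.44 and 0.18 in the same order. In the small cluster M13, where 8 of the 16 were measured, the median was 0.65 and the Ms4a4c ratio 1.56 (0.62 to 2.41). These comparisons share their cells and libraries, so the values stand side by side and are not a test. The 7 monocyte markers also summed higher, to 3133 CPM over monocytes or macrophages of the library labelled KO and 2149 CPM in the library labelled WT, with none at 0. Their part in the Ms4a4c difference was not tested.

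**Figure D3:**
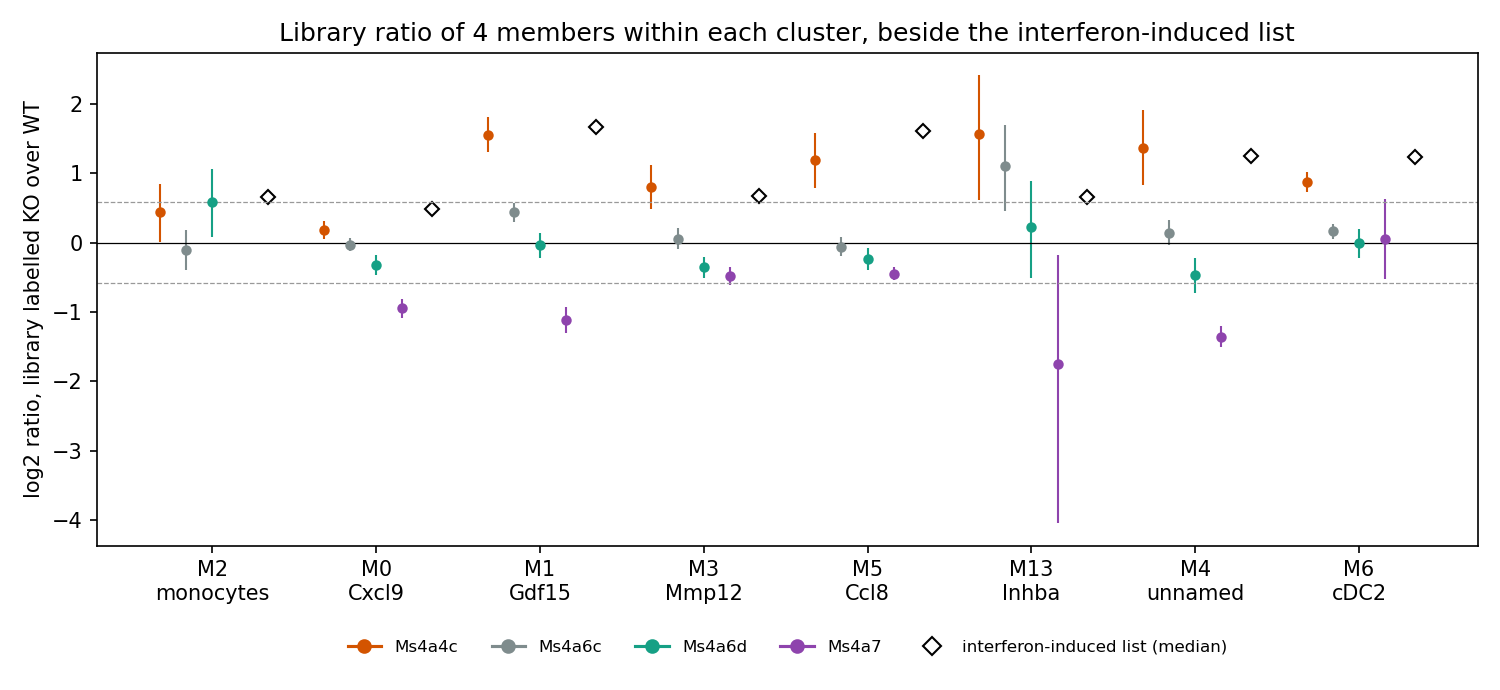
Log2 ratio, KO over WT by label, for Ms4a4c, Ms4a6c, Ms4a6d and Ms4a7 in 8 myeloid clusters (points; lines, exact 95% counting intervals), with the median of the interferon-induced list (open diamonds) and the 1.5-fold marks (dashed); members with under 20 UMIs in a cluster are left out. Ms4a4c lies above 0 in each cluster drawn, at 0.18 in M0 and 1.56 in M1, and Ms4a7 below 0 in each cluster drawn but cDC2, where it is at 0.05.

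Ms4a6c, the neighbour of Ms4a6b, was highest in monocytes or macrophages and in cDC2. Monocytes or macrophages held 637 CPM (618 to 656) in the library labelled KO and 520.3 CPM (508 to 533) in the library labelled WT, and cDC2 held 568 CPM (539 to 598) and 506 CPM (480.1 to 533). Unlike Ms4a6b it was low in T cells, at 16.6 and 14.2 CPM in CD8 T cells, where empty droplets held 342 and 250.5 CPM. The part of free RNA in these T cell values was not tested. Among the clusters Ms4a6c was high in M0, at 915 and 932 CPM, and in the monocytes of M2, at 888.5 and 954 CPM. It was lower in M3, at 359.6 and 345 CPM. In cDC1 it was at 168 CPM (151 to 187) and 174 CPM (155 to 196).

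The Ms4a6c ratio over monocytes or macrophages was 0.29 (0.24 to 0.35), within 1.5-fold, and 0.0817 with the same cluster weights. It was 0.44 (0.30 to 0.57) in M1, 1.10 (0.46 to 1.69) in M13 and between -0.10 and 0.06 in M0, M2, M3 and M5. Migratory dendritic cells, marked by Ccr7 and Fscn1, held 114 CPM (84.6 to 150) in the library labelled KO and 38.9 CPM (27.0 to 54.4) in the library labelled WT, a ratio of 1.55 (0.89 to 2.22). Of the 50 UMIs behind the higher value 27 came from a single cell. A UMI was found in 12 of 72 and 21 of 131 of these cells, and the 9 macrophage genes summed to 478 and 142 CPM in them.

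Ms4a6d lay mainly in monocytes and macrophages, which held 77.1% of its UMIs in the library labelled KO and 83.9% in the library labelled WT. Its level there was 325 CPM (312 to 339) and 348 CPM (338 to 358), which gives a log2 ratio of -0.10 (-0.17 to -0.02). In cDC2 it was at 146 CPM (131 to 162) and 147 CPM (133 to 162), and in CD8 T cells at 11.3 and 10.7 CPM. By cluster it ran from 239 CPM in M13 to 375 CPM in M5 of the library labelled KO and from 205 CPM in M13 to 441 CPM in M5 of the library labelled WT. The ratio was -0.32 (-0.46 to -0.17) in M0 and -0.36 (-0.51 to -0.20) in M3, and 0.58 (0.08 to 1.06) in the monocytes of M2, where 43 UMIs stood against 226.

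Ms4a7, a macrophage gene, was the most restricted of the myeloid members. Monocytes or macrophages held 84.5% of its UMIs in the library labelled KO and 86.4% in the library labelled WT. Their levels were 444 CPM (429 to 460.1) and 689 CPM (675 to 704). The monocytes of M2 held 7.93 CPM from 1 UMI and 17.1 CPM from 17 UMIs, and cDC2 held 20.5 CPM (15.2 to 26.9) and 19.7 CPM (14.9 to 25.6). The values of M2 and cDC2 all lie under the 194 and 296 CPM of empty droplets, and the part of free RNA in them was not tested. At the other end the C1qa macrophages of M5 held 1085 CPM (1024 to 1148) and 1479 CPM (1435 to 1524), with a UMI in 85.1% and 97.2% of cells.

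Over monocytes or macrophages the log2 ratio of Ms4a7 was -0.63 (-0.69 to -0.57), 1.55-fold lower in the library labelled KO, as 7.99% of genes were by at least 1.5-fold. It stayed lower but within 1.5-fold with a minimum of 2000 UMIs (-0.47) and with at most 5% mitochondrial UMIs (-0.36). It was lower in every cluster of the class, although M2 had only 18 UMIs in all, with an interval that spans 0, and M13 had 3 and 139. In M0 it stood at 328 CPM (306 to 351) in the library labelled KO and 632 CPM (594 to 673) in the library labelled WT, a ratio of -0.95 (-1.08 to -0.81). In M1 it stood at 235 CPM (208 to 264) and 507 CPM (483 to 532), a ratio of -1.11 (-1.30 to -0.93). The differences were smaller in M3, at 409 and 569 CPM (-0.48, -0.61 to -0.35), and in M5 (-0.45, -0.54 to -0.35). Past 1.5-fold lower were 9.78% of the genes of M0 and 11.3% of those of M1.

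Shares of cells told the same for Ms4a7. Thinned to 1000 UMIs, 23.1% (20.7 to 25.6) of monocytes or macrophages in the library labelled KO and 32.6% (30.3 to 34.9) in the library labelled WT had an Ms4a7 UMI. In M0 the thinned shares were 17.5% (14.1 to 21.3) and 33.3% (27.4 to 39.7). The unnamed cluster M4, which joins Retnla, Ear2 and cell cycle genes and is not in the class, held 285 CPM (261 to 312) and 731 CPM (690.3 to 773), with thinned shares of 12.7% and 38.9%. The 9 macrophage markers summed to 9994 CPM over monocytes or macrophages of the library labelled KO and 11349 CPM in the library labelled WT, with none at 0 and 3 of 9 higher in the library labelled KO. Their part in the Ms4a7 difference was not tested.

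Of the 6 members with at least 20 UMIs in monocytes or macrophages, 3 passed 1.5-fold, where 14.8% of all genes did. They were Ms4a4c and the low-level Ms4a4b, both higher in the library labelled KO, and Ms4a7, which was lower. Ms4a4c was not past 1.5-fold with the same cluster weights (0.54), and Ms4a7 was not under the 2 stricter cell filters. Of Ms4a4b, free RNA would give 6.87 of 14.3 CPM in the library labelled KO and 0.731 of 6.25 CPM in the library labelled WT. The part of free RNA in this count was not tested. Ms4a6b, Ms4a6c and Ms4a6d stayed within it.

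**Figure D4:**
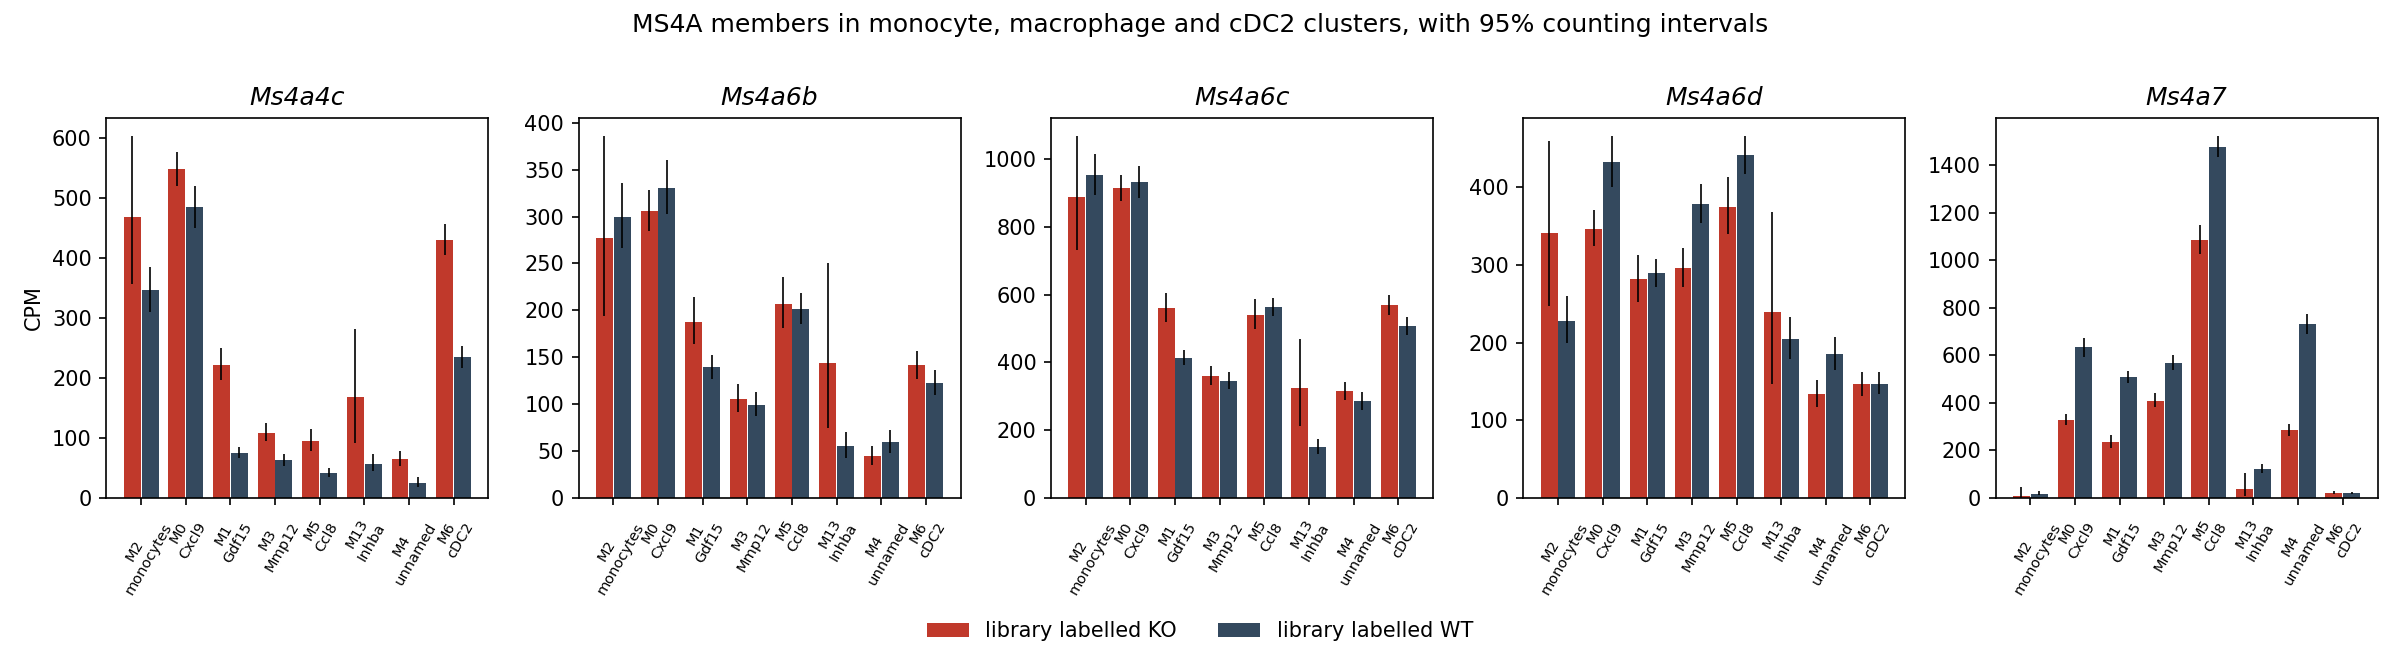
Levels of 5 members in the monocyte, macrophage and cDC2 clusters (bars, CPM; lines, exact 95% counting intervals), with the library labelled KO in red on the left of each pair and the library labelled WT in dark on the right. Ms4a4c and Ms4a6c are highest toward M2 and M0, while Ms4a7 is near 0 in M2 and highest in M5, at 1085 CPM in the library labelled KO and 1479 CPM in the library labelled WT.

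Within single cells the pairs of members were found together at different rates. After thinning, 48 monocytes or macrophages of the library labelled KO held both Ms4a4c and Ms4a7, where independent detection would give 63.2, and 48 in the library labelled WT did, where it would give 64.8. Ms4a4c and Ms4a6c were found together in 157 cells, where 109 would be given, and in 117 cells, where 67.7 would be. Ms4a6c and Ms4a7 were found together in 107 cells of the library labelled KO, where 107.4 would be given, and in 197 of the library labelled WT, where 178.5 would be. Ms4a6d and Ms4a7 were found together in 89 cells of the library labelled KO, where 71.7 would be given, and in 172 of the library labelled WT, where 131 would be. These counts pool clusters whose levels differ and are a description.

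Likeness across classes was read from Pearson correlations of log2(CPM + 10) over 24 class-by-library values, which share libraries, depth and free RNA. Among the genes most like Ms4a1 were Pax5 (r = 0.99), the transcription factor of B cell identity, Fcmr, the IgM Fc receptor, Iglc1 and Cd22. Ms4a4b was most like Ifng (r = 0.95), the gene of interferon gamma, with Ctsw, Sh2d1a, Nkg7 and Skap1 next. Ms4a6d was most like Clec4a1 (r = 0.94), with Dpep2, Fcgr1, the high-affinity IgG receptor, and Csf1r, the receptor of the macrophage growth factor CSF1, after it. Ms4a7 was most like Lpl (r = 0.97), which encodes lipoprotein lipase, with Fcrls, Folr2, Tnfsf13 and Trem2 next. Ms4a6c was most like Phf11d (r = 0.91).

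The remaining members had no gene with r as high. An r depends on how a gene is spread over classes. Values for Ms4a1, found almost only in B cells, and for members of several classes are thus not comparable. Ms4a4c had its highest value with Rasgef1b (r = 0.79) and its next with Ms4a6d (0.77), and Ms4a6b had its highest with Dok2 (0.83), an adaptor of T and myeloid cells. Between members, r was 0.83 for Ms4a6c and Ms4a6d and 0.63 for Ms4a4b and Ms4a6b. It was -0.15 for the promoter neighbours Ms4a4b and Ms4a4c, and 0.31 for Ms4a6b and Ms4a6c.

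Of the 12 other MS4A genes in the matrices, 3 held at least 20 UMIs in the cells kept. Ms4a4a, whose product associates with the fungal receptor Dectin-1 on macrophages, held 1915 UMIs in the library labelled KO and 3787 in the library labelled WT. In monocytes or macrophages it stood at 254 CPM and 287 CPM, a log2 ratio of -0.17 (-0.26 to -0.09), and in the monocytes of M2, where Ms4a7 had 1 and 17 UMIs, at 413 and 360 CPM. Ms4a14 stood at 6.92 and 13.1 CPM in monocytes or macrophages, a ratio of -0.92 (-1.41 to -0.44) from 48 and 161 UMIs. Ms4a8a stood at 21.8 and 14.3 CPM, a ratio of 0.61 (0.29 to 0.93).

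Ms4a2, the mast cell and basophil member, and Ms4a3 had 0 UMIs in the cells of both libraries, which allows up to 0.172 CPM in the library labelled KO and 0.114 CPM in the library labelled WT. Ms4a10, Ms4a12, Ms4a13, Ms4a15 and Ms4a18 also had none, Ms4a5 had 1 UMI and Ms4a4d 13. Tmem176a and Tmem176b, genes of related membrane proteins, were highest in migratory dendritic cells among the myeloid classes, with Tmem176b at 943 CPM in the library labelled KO and 648 CPM in the library labelled WT. In monocytes or macrophages Tmem176b was at 151 and 149 CPM.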

How the data were processed

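The authors deposited unfiltered matrices of raw UMI counts per gene and barcode for 1 RNA library per genotype, per the file headers the output of Cell Ranger 3.1.0 (build mm10 per the submitters' processing notes), and TCR contig tables with counts of UMIs and reads. All other values were computed from these counts. Barcodes passing the UMI, gene and mitochondrial limits numbered 3211 KO and 4370 WT. The highest doublet scores (Scrublet in scanpy 1.11.5, 0.8% per 1000 barcodes) were removed, 82 and 153. Both libraries were clustered together (Leiden, resolution 1, 2000 variable genes without MS4A, TMEM176, receptor, mitochondrial and ribosomal genes, 30 components, 15 neighbours), T and NK clusters again. Clusters were named by the best-scoring marker list, with at least 3 markers at 50 CPM. T and NK clusters were named in turn as cycling (3 cycle genes among the leading 10), gamma-delta or NK (mean z-score above 1), regulatory (Foxp3 at 100 CPM), CD8 (Cd8a plus Cd8b1 at least 3 times Cd4) or CD4 (Cd4 higher). CD8 clusters T1, T3, T9 and T11 had no CD8 marker among their leading 10 genes. Clusters stayed unnamed where another type's markers led.

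UMIs were summed per class and library. Levels have exact Poisson, shares Clopper-Pearson and ratios conditional binomial intervals at 95%, which cover counting error only, since reads of 1 pool are no replicates. The depth behind a value is the class total. Genes with at least 20 UMIs in both libraries together were counted as past a 1.5-fold rule of size, and the limit for a share or level of 0 is 3 counts. Empty droplets held 10 to 100 UMIs, and free RNA was estimated from haemoglobin and melanoma genes. All 7 members, other MS4A genes with at least 20 UMIs, and the 5 genes most like each member were to be named, of which some are not reported here. The members and lists were chosen with earlier results of these data known. The ratio intervals were tested on counts simulated from the Poisson model that they assume. The simulated counts leave out clumping of UMIs by cell, so they check the calculation and not its fit to these data. Alternatives changed filters, doublets, resolution, gating, scaling, free RNA, depth and cluster weights.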

Additional observations from a re-analysis of the deposited data

Results flagged for a closer look

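Ms4a6b had log2 ratios of opposite sign in different clusters. It was -1.32 in cluster T5, against 1.16 in the migratory dendritic cells of cluster M7, 1.39 in the macrophage cluster M13 and 1.43 in the cycling T cells of cluster T7, each with an interval that leaves out 0. With 1 library per genotype the difference between clusters was not tested. The values rest on few cells, with 26 cells of T5 and 9 of T7 in the library labelled WT and 18 of M13 in the library labelled KO. In M7 the level was 41.0 CPM (24.3 to 64.8, 72 cells) in the library labelled KO. It was 18.3 CPM (10.5 to 29.8, 131 cells) in the library labelled WT. The macrophage genes in M7 also summed higher in the library labelled KO, and their part was not tested.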

How the results depend on the processing

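Of the ratios, Ms4a1 in B cells (0.86 to 1.58 over 11 alternatives), Ms4a4c (0.54 to 1.14 over 14) and Ms4a7 (-0.86 to -0.36 over 14) kept their sign in all of them, Ms4a1 past 1.5-fold in 11, Ms4a4c in 13 and Ms4a7 in 12. Ratios that moved by more than their counting interval are given by setting, for Ms4a4b and Ms4a6b in CD8 T cells and for the others in monocytes or macrophages; the cause was not tested. With a minimum of 500 UMIs and 250 genes Ms4a6c was 0.23, Ms4a6d -0.21 and Ms4a7 -0.76. With 2000 UMIs and 800 genes Ms4a6b was -0.40 and Ms4a7 -0.47. With at most 5% mitochondrial UMIs Ms4a4b was 0.0636, Ms4a6b -0.51, Ms4a6c 0.49, Ms4a6d 0.0502 and Ms4a7 -0.36. At resolution 0.5 Ms4a4b was 0.0851, Ms4a6b -0.52, Ms4a6c 0.23, Ms4a6d -0.19 and Ms4a7 -0.74. With classes by gating Ms4a1 in B cells was 1.58, Ms4a4c 0.88, Ms4a6b 0.22, Ms4a6c 0.23 and Ms4a6d -0.18. With clusters drawn with the MS4A and TMEM176 genes Ms4a4c was 0.94, Ms4a6c 0.11, Ms4a6d -0.23 and Ms4a7 -0.86. With cells thinned to 1000 UMIs Ms4a4c was 0.89, Ms4a6d 0.16 and Ms4a7 -0.73. With the median of ratios as size factor Ms4a4b was 0.32, the median over genes of the CD8 class moving by 0.24. In cells with a beta chain Ms4a4b was 0.31.

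Alternatives chosen after seeing the data gave, with the same cluster weights, -0.0444 for Ms4a4b, 0.54 for Ms4a4c, -0.55 for Ms4a6b, 0.0817 for Ms4a6c and -0.20 for Ms4a6d. With cluster M4 Ms4a6c was 0.22, Ms4a6d -0.19 and Ms4a7 -0.75, without M0 Ms4a4c was 0.78 and without M2 Ms4a7 was -0.73. The count of members past 1.5-fold in CD8 T cells, 0 as reported, was 1 at 5% mitochondrial UMIs, at resolution 2 and after thinning, and 3 with clusters T0 and T6. In monocytes or macrophages it was 2 or 3. No paired analysis was possible because each genotype has 1 RNA library. The 43 B cells of the library labelled KO limit the precision of Ms4a1.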

Other observations

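In cluster T13, which was drawn among the T and NK cells but stayed unnamed since it was led by genes of dendritic and other myeloid cells such as H2-Ab1, H2-Aa, Cd74, Mgl2 and Clec10a, Ms4a6c stood at 129 CPM (17 UMIs) in the library labelled KO and 39.2 CPM (6 UMIs) in the library labelled WT, and Ms4a4b at 175 and 177 CPM. In cells outside the T and NK clusters with a beta chain, 18 in the library labelled KO and 13 in the library labelled WT, Ms4a4b was at 124 CPM (81.0 to 182) and 58.5 CPM (29.2 to 105), and Ms4a4c at 157 and 144 CPM, with medians of 11039 and 12423 UMIs per cell.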
